A study of Mus musculus with 56 samples.

Results

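A set of 10 genes that make, use or spare nitric oxide and its substrate arginine was followed in the liver of hypercholesterolaemic mice: Nos3, Nos2, Ddah1, Ddah2, Agxt2, Slc7a2, Ass1, Asl, Arg1 and Prkg1. They were chosen by symbol, with earlier results of these data known, as the enzymes, transporter and target kinase of this pathway. They are 10 of the 45513 genes counted. Livers came from 56 female APOE*3Leiden.CETP mice, which carry the human APOE*3-Leiden and CETP transgenes, with 8 mice in each of 7 groups. All groups ate a Western-type diet with 15% cacao butter and 0.15% cholesterol and were 9 to 14 weeks old at the start. The study's methods give 16 weeks of treatment after a run-in on the diet of 3 weeks. Those methods do not mention the L-NAME group, so its treatment length is not given there. Control mice received the vehicle, 5% carboxymethyl cellulose, by gavage. The kinase inhibitor groups received imatinib at 150 mg/kg by 2 gavages per day, nilotinib at 10 or 30 mg/kg, or ponatinib at 3 or 10 mg/kg by 1 gavage per day. Per the study's methods, nilotinib and ponatinib mice were also given a further gavage of vehicle only. The L-NAME group received the nitric oxide synthase inhibitor L-NAME at 0.12 to 0.20% in the drinking water, together with vehicle gavage.

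Nitric oxide synthases convert arginine to citrulline and nitric oxide, which activates guanylyl cyclase and, through cGMP, the kinase encoded by Prkg1. Endothelial synthase (Nos3) is found in vascular endothelium and inducible synthase (Nos2) mainly in activated macrophages and other inflamed cells. Methylated arginines inhibit the synthases and are broken down by the dimethylarginine dimethylaminohydrolases Ddah1 and Ddah2 and by Agxt2. In periportal hepatocytes arginine is an intermediate of the urea cycle: Ass1 and Asl build it from citrulline and aspartate, Arg1 splits it into urea and ornithine, and the cationic amino acid transporter Slc7a2 carries it into the cell.

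Reads counted on genes ranged from 5342379 to 97473341 per mouse, with a median of 7570238, and L-NAME replicate 10 held the highest value. Of the uniquely aligned reads, 7.97% ± 0.42 (SD, n = 8) fell outside annotated genes in control mice, and the means were 10.0% ± 1.82 with imatinib, 9.75% ± 0.69 and 10.5% ± 1.39 with nilotinib 10 and 30 mg/kg, 8.53% ± 0.61 and 11.0% ± 1.99 with ponatinib 3 and 10 mg/kg and 11.0% ± 2.45 with L-NAME. This share differed between groups, so its effect on the calls of single genes was examined by adding it to the fit. No control mouse exceeded 8.675%. The lowest values were 9.138% and 9.41% with nilotinib 10 and 30 mg/kg, 8.895% with ponatinib 10 mg/kg and 8.815% with L-NAME. In these comparisons share and treatment move together, so a call lost with the share in the fit cannot be assigned to either. The hepatocyte list, led by Alb, summed to 67680 to 144000 CPM (counts scaled to library size) in single mice, so the tissue carries the markers of its label. The comparisons with control all use the same 8 control mice, so they are not independent of each other.

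Per kilobase of exon, arginase 1 was the most abundant member on the reads counted to each gene. Ass1 is given here on its own reads, while its near-identical pseudogene Gm5424 held a median of 87.8% of their summed reads. The place of Ass1 in this order and its ratio to Arg1 depend on the origin of those reads, which was not tested. In control mice Arg1 averaged 519 ± 132 CPM per kb (mean ± SD, n = 8), which was 4.77 times Ass1, 6.16 times Asl and 465 times Nos3. Ass1 (109 ± 46.8), Asl (84.3 ± 27.9), Slc7a2 (68.9 ± 21.5), Agxt2 (59.3 ± 9.52) and Ddah1 (49.9 ± 8.42) came next. Neighbours in this order differed by less than the larger SD of the pair. Ddah2 (2.91 ± 1.09) and Nos3 (1.12 ± 0.37) were far lower, and Ddah1 was 17.1 times Ddah2 per length. Nos2 and Prkg1 were close to the detection limit, with 91 and 152 reads over all 56 mice, and did not pass the filter on low counts.

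**Figure D1:**
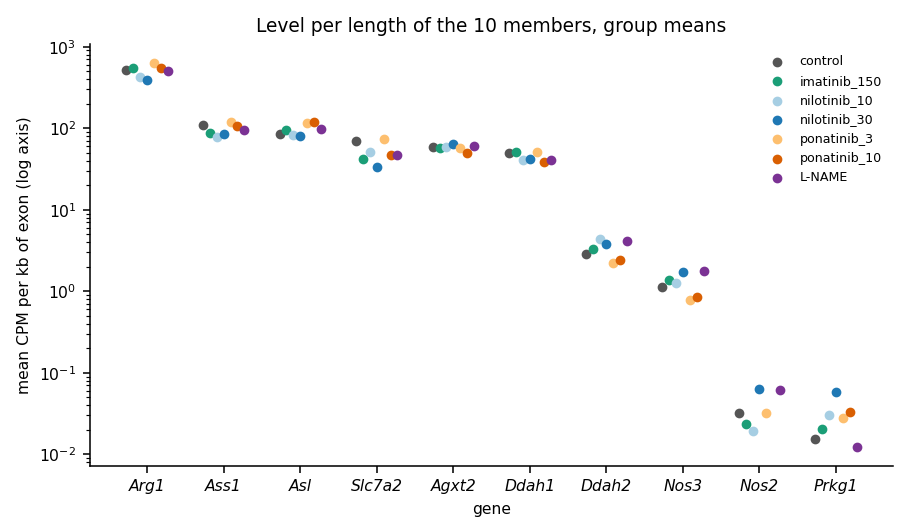
Mean level of the 10 members in each of the 7 groups, in CPM per kilobase of exon on a log axis, with 1 point per group mean of 8 mice. Arg1 lies highest in every group, between 390 and 630 CPM per kb, and Nos2 has no point for ponatinib_10, where no read was counted. Ass1 is shown on its own reads, without those of Gm5424.

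Nos2 had no read in 43 of the 56 mice, and its reads stood in a few mice as small clumps of up to 21. In the 8 mice given ponatinib 10 mg/kg it was at 0, which allows at most 0.0458 CPM over the group at a floor of 3 reads. Prkg1 had no read in 33 mice and its highest value was 34 reads, in 1 mouse given nilotinib 30 mg/kg. Counts of this size cannot show a difference between groups at this depth, and these floors cover counting error only.

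A gene was called when its Benjamini-Hochberg adjusted p, over the 14314 genes tested by edgeR's quasi-likelihood test in 1 fit of the 56 mice, was below 0.05. Of the 8 members tested, ponatinib 10 mg/kg changed 3 against control (Ddah1 and Slc7a2 lower, Asl higher), in a comparison that called 13.1% of all genes. Nilotinib 30 mg/kg changed 2 (Arg1 and Slc7a2, both lower), where 5.77% of all genes were called. Imatinib changed 1 (Slc7a2, lower; 10.3% of all genes) and L-NAME changed 1 (Slc7a2, lower; 11.8% of all genes). Each of these counts rests on 1 to 3 genes. Nilotinib 10 mg/kg changed none of the 8 against control, where 1.41% of all genes were called, with 4 members at an unadjusted p under 0.05 and none called by DESeq2. Ponatinib 3 mg/kg changed none, where 0.0419% of all genes were called, with 2 members at an unadjusted p under 0.05 and none called by DESeq2. At the study's cut-off, an unadjusted p below 0.01, Asl also passed with ponatinib 3 mg/kg, as did 3.14% of all genes.

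**Figure D2:**
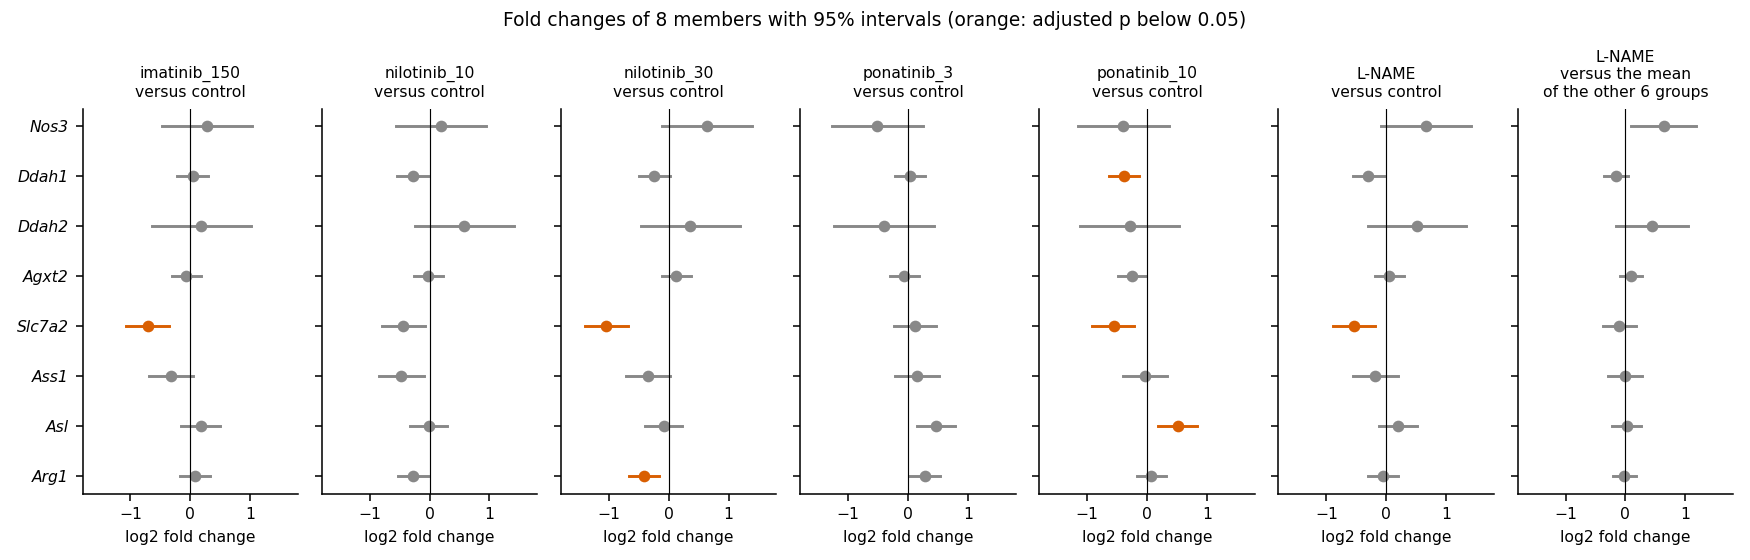
Log2 fold change of the 8 tested members (points) with 95% intervals (lines) in each of 7 comparisons, with the first group minus the second on the x axis. Orange marks an adjusted p below 0.05, and Slc7a2 is orange and to the left of 0 in 4 of the 6 comparisons with control.

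Against the mean of the other 6 groups, L-NAME changed none of the 8 members, in a comparison that called 0.238% of all genes. Only Nos3 had an unadjusted p under 0.05, and DESeq2 called none. Between ponatinib doses, 10 against 3 mg/kg, Slc7a2 was lower, where 1.39% of all genes were called, and Ddah1 also passed an unadjusted p below 0.01, as did 5.78% of all genes. Between nilotinib doses, 30 against 10 mg/kg, no gene at all was called (0.0%), although 812 had an unadjusted p under 0.05 and DESeq2 called 2. Slc7a2 was the only member at an unadjusted p under 0.05 there, and it also passed 0.01, as did 1.32% of all genes. Ponatinib was also set against nilotinib at the shared dose of 10 mg/kg, the higher ponatinib and the lower nilotinib dose. The study reported unequal plasma exposure to the drugs at this dose. None of the 8 members was called, where 2.06% of all genes were called. There, 4 members had an unadjusted p under 0.05, and Arg1 and Asl passed 0.01, as did 6.73% of all genes. DESeq2 called Asl in that comparison.

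The synthases gave no call. Nos3 lay between 1.62 and 6.60 CPM in control mice, with a median of 4.83, and between 2.43 and 10.5 CPM with L-NAME, with a median of 8.11. With nilotinib 30 mg/kg the lowest, median and highest values were 3.82, 7.74 and 9.07 CPM, with ponatinib 3 mg/kg 1.73, 2.93 and 6.75 CPM, and with ponatinib 10 mg/kg 0.143, 2.75 and 7.16 CPM. With L-NAME and with nilotinib 30 mg/kg 7 of 8 mice were above the control median, and with ponatinib 3 mg/kg 7 of 8 were below it, but all of these groups overlapped control. The log2 difference from control was 0.67 ± 0.38 (SE) with L-NAME (adjusted p = 0.27; 5 of 8 mice above every control mouse) and 0.64 ± 0.38 with nilotinib 30 mg/kg (adjusted p = 0.38; 6 of 8 mice above). Against the mean of the other 6 groups, Nos3 differed by 0.64 ± 0.27 with L-NAME (adjusted p = 0.27, unadjusted p = 0.022). Its 95% interval ran from 0.10 to 1.18, and the adjusted p ranged from 0.19 to 0.46 with each mouse left out in turn. Summed levels of 15 endothelial markers, all measured, ranged over mice from 312 to 843 CPM in control, 460 to 758 with L-NAME, 560 to 727 with nilotinib 30 mg/kg, 265 to 525 with ponatinib 3 mg/kg and 178 to 604 with ponatinib 10 mg/kg, and their part in the level of Nos3 was not tested. In such bulk samples fewer cells of a type and less RNA per cell cannot be told apart. Of the exon bases of Nos3, 32.3% also belong to Atg9b and Gm15587 on the other strand, and the strand setting of the counting is not given in the sources used here, so part of its reads cannot be told from theirs.

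**Figure D3:**
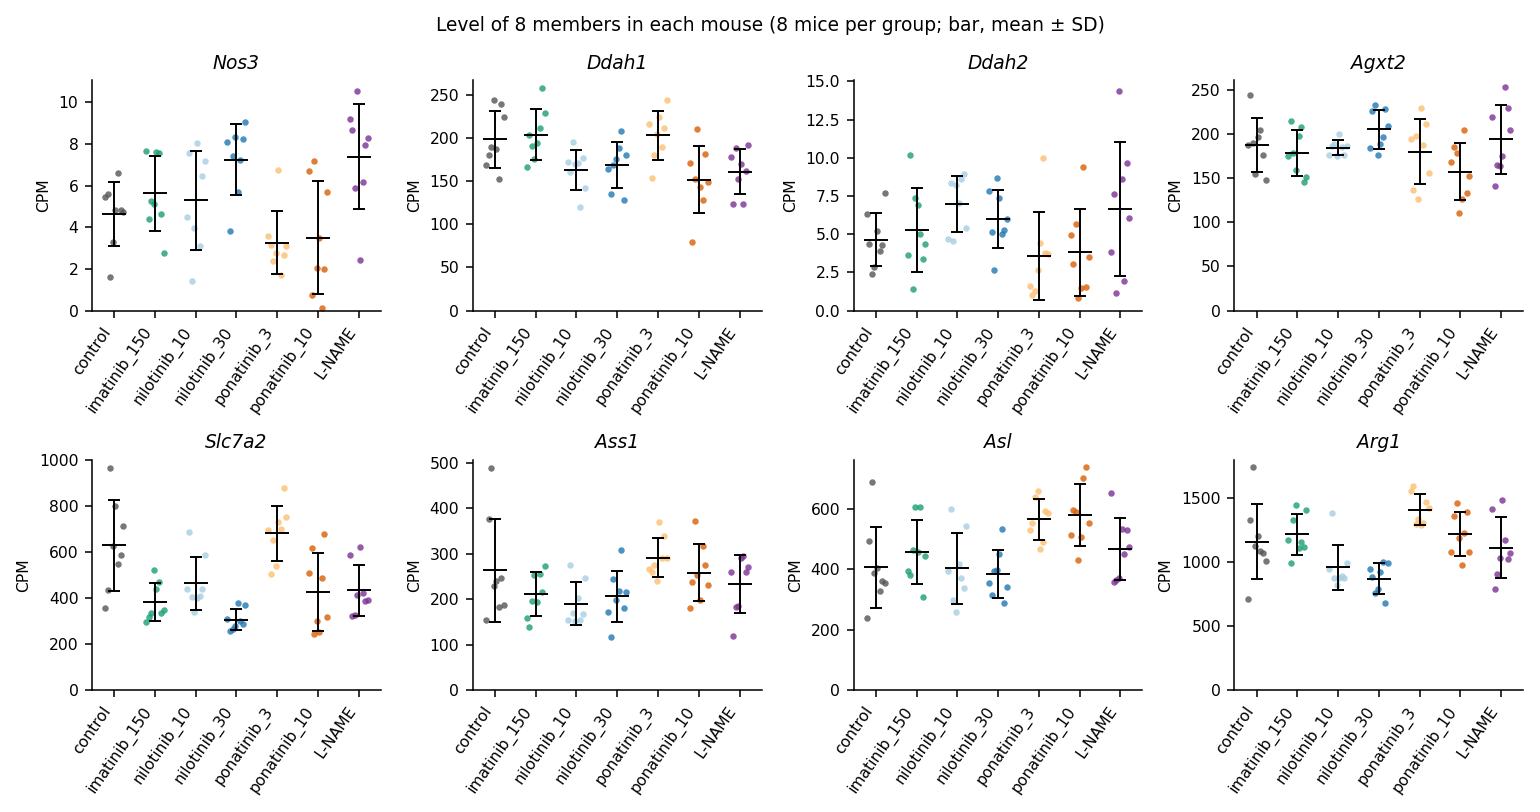
CPM of 8 members in each mouse (points) by group, 8 mice per group, with the mean and SD as a black bar. For Slc7a2 the 8 nilotinib_30 mice lie between 259 and 379 CPM against 357 to 967 CPM in control, and for Nos3 the groups overlap throughout.

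Among the genes that remove methylarginine inhibitors of the synthases, Ddah1 was lower with ponatinib 10 mg/kg and Ddah2 and Agxt2 were not called in any comparison. For Ddah1 the lowest, median and highest control values were 153, 189 and 244 CPM. Ponatinib 10 mg/kg gave 79.3, 151 and 211 CPM, so that 5 of its 8 mice were below every control mouse. It fell by 23.5% (log2 fold change -0.39 ± 0.13 SE, adjusted p = 0.036). The call was lost when any of 8 mice was left out (control replicates 28, 46 and 52, ponatinib 10 mg/kg replicates 8, 14, 24, 35 and 48), with adjusted p from 0.053 to 0.10, and when the share of reads outside genes was in the fit (adjusted p = 0.36). Ddah1 was also below the control mean in all 8 mice given L-NAME (log2 -0.30 ± 0.13, adjusted p = 0.13) and in all 8 given nilotinib 10 mg/kg (-0.28 ± 0.13, adjusted p = 0.30), and neither difference passed the test. In the imatinib and ponatinib 3 mg/kg groups its values ran from 167 to 258 and from 154 to 245 CPM, across the control range. Ddah2 had medians between 3.16 and 7.62 CPM, and its log2 differences from control had SEs of 0.41 to 0.42, the largest of the members in these comparisons, and none was called. Agxt2, which degrades asymmetric dimethylarginine in mitochondria, had medians between 160 and 203 CPM over the groups, and of its 6 differences from control the largest, with ponatinib 10 mg/kg, was -0.25 ± 0.12 (adjusted p = 0.17). Of its exon bases, 4.9% also belong to Gm21973.

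Slc7a2, the arginine transporter, was the member most often called. In control mice it had lowest, median and highest values of 357, 607 and 967 CPM, in nilotinib 30 mg/kg mice 259, 294 and 379 CPM, in imatinib mice 296, 343 and 522 CPM, in ponatinib 10 mg/kg mice 245, 402 and 679 CPM and in L-NAME mice 322, 403 and 621 CPM. Nilotinib 10 mg/kg mice had 342, 424 and 690 CPM, and ponatinib 3 mg/kg mice, with the highest median, had 505, 700 and 881 CPM. The nilotinib 30 mg/kg values lay at or under the low end of control, with 6 of 8 mice below every control mouse, whereas the ponatinib 3 mg/kg values lay inside the control range. Slc7a2 fell by 51.3% with nilotinib 30 mg/kg (log2 -1.04 ± 0.18 SE, adjusted p = 0.00026) and by 39.1% with imatinib (-0.71 ± 0.18, adjusted p = 0.0057), and both calls held with each of the 16 mice of the comparison left out in turn and with the share of reads outside genes in the fit. An exact permutation test of the log2 CPM of 8 against 8 mice gave p = 0.000466 for nilotinib 30 mg/kg (adjusted p = 0.0224 over 48 tests), the only one of those tests to pass.

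The other Slc7a2 calls were weaker. With ponatinib 10 mg/kg it fell by 32.3% (log2 -0.56 ± 0.18, adjusted p = 0.026), and the call was lost without control replicate 22 or 33 or ponatinib 10 mg/kg replicate 14, 24 or 48 (adjusted p from 0.064 to 0.083) and with the share of reads outside genes in the fit (0.15). With L-NAME it fell by 31.0% (-0.54 ± 0.18, adjusted p = 0.037), with 2 of 8 mice below every control mouse, and the call was lost without any of 9 mice (control replicates 22, 33 and 52, L-NAME replicates 10, 26, 32, 45, 50 and 55; adjusted p from 0.055 to 0.12) and with that share in the fit (0.21). Against the mean of the other 6 groups the difference with L-NAME was -0.10 ± 0.14 (adjusted p = 0.84). Between ponatinib doses it was lower at 10 than at 3 mg/kg by 0.68 ± 0.18 on the log2 scale (adjusted p = 0.036), with all 8 high-dose mice below the median of the low dose. That call was lost without any of 10 mice (ponatinib 3 mg/kg replicates 7, 17, 29, 34, 41 and 47, ponatinib 10 mg/kg replicates 2, 14, 24 and 48; adjusted p from 0.051 to 0.11), in a fit of the 2 groups alone (0.14) and with the share of reads outside genes in the fit (0.27). Of its exon bases, 6.95% also belong to Gm26584 on the other strand.

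Ass1, which joins citrulline and aspartate, was not called on its own reads, and a near-identical gene held more reads than it did. The processed pseudogene Gm5424 (chromosome 10, 62071123 to 62072362) matches the coding sequence of Ass1 (chromosome 2, 31470207 to 31520672) over all 1236 bases at 99.5% identity with no gap. A stretch of 120 coding bases of each is shown, because reads that miss the differing base match both genes, with the single differing base in capitals.
Ass1: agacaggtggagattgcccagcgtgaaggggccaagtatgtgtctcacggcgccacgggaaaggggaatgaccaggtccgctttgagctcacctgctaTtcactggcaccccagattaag
Gm5424: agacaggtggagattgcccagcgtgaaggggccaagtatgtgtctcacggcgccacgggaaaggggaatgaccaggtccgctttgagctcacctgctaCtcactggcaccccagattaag
In the GENCODE transcripts, 38.6% of the 50-base words of Ass1 also stand in Gm5424, while Arg1, Asl, Ddah1, Ddah2 and Nos2 shared no such word with another gene. Gm5424 held 82.2 to 91.2% of the summed reads of the pair in single mice, with a median of 87.8%, and averaged 2317 ± 672 CPM in control mice against 263 ± 113 CPM on Ass1.

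On its own reads Ass1 ranged from 154 to 488 CPM in control mice, with a median of 235 CPM, and its log2 differences from control ran from -0.47 ± 0.19 with nilotinib 10 mg/kg (adjusted p = 0.20) to 0.15 ± 0.18 with ponatinib 3 mg/kg (adjusted p = 0.87). When the reads of Ass1 and Gm5424 were summed, a choice made after the data were seen, the pair was lower than control in 4 of 6 groups. The log2 change was -0.66 ± 0.18 with nilotinib 30 mg/kg (adjusted p = 0.02), -0.60 ± 0.18 with L-NAME (0.022), -0.67 ± 0.18 with nilotinib 10 mg/kg (0.043) and -0.54 ± 0.18 with imatinib (0.047), by edgeR. With ponatinib 10 mg/kg it was -0.44 ± 0.18 (adjusted p = 0.11) and with ponatinib 3 mg/kg 0.04 ± 0.18 (0.97). The summed reads were not fitted with the share of reads outside genes, so its effect on these 4 calls was not tested. The nilotinib 30 mg/kg call was lost without control replicate 22 or nilotinib 30 mg/kg replicate 15, and the L-NAME call without control replicate 12 or 22 or L-NAME replicate 10, with adjusted p up to 0.072 and 0.077. The imatinib call was lost without control replicate 12, 22, 33 or 46 or imatinib replicate 6, 11, 16 or 27 (adjusted p up to 0.14). The nilotinib 10 mg/kg call was lost without control replicate 12, 22, 33, 46 or 52 or nilotinib 10 mg/kg replicate 3, 19, 25, 30, 36, 43 or 53 (adjusted p up to 0.10).

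Asl, which splits argininosuccinate into arginine and fumarate, was higher with ponatinib 10 mg/kg. The control group had lowest, median and highest values of 240, 374 and 690 CPM. Ponatinib gave 468, 571 and 660 CPM at 3 mg/kg and 430, 572 and 739 CPM at 10 mg/kg, and all 16 ponatinib mice were above the control mean. The difference from control was 42.4% at 10 mg/kg (log2 0.51 ± 0.16 SE, adjusted p = 0.023) and 38.9% at 3 mg/kg (0.47 ± 0.16, adjusted p = 0.26), which did not pass the test. Between the doses the difference was 0.04 ± 0.16, with an interval from -0.28 to 0.35. The call at 10 mg/kg was lost without control replicate 1 or 40 or ponatinib 10 mg/kg replicate 35 or 42 (adjusted p from 0.054 to 0.073) and with the share of reads outside genes in the fit (0.35). At 10 mg/kg, Asl was higher with ponatinib than with nilotinib by 0.52 ± 0.16 (adjusted p = 0.061).

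Arg1, the last step of the urea cycle, was lower with nilotinib 30 mg/kg. Its lowest, median and highest values were 709, 1106 and 1742 CPM in control mice and 675, 901 and 997 CPM with nilotinib 30 mg/kg, and all 8 nilotinib mice were below the control median, although 7 of them lay inside the control range. It fell by 24.9% (log2 -0.41 ± 0.12 SE, adjusted p = 0.031), and the call was lost without control replicate 12, 22 or 33 or nilotinib 30 mg/kg replicate 20, 31 or 49 (adjusted p from 0.051 to 0.13), in a fit of the 2 groups alone (0.06) and with the share of reads outside genes in the fit (0.12). With nilotinib 10 mg/kg the values were 821, 882 and 1376 CPM (log2 -0.28 ± 0.12, adjusted p = 0.27), and with L-NAME 790, 1048 and 1484 CPM (-0.06 ± 0.12, adjusted p = 0.84). With ponatinib 3 mg/kg they were 1288, 1374 and 1587 CPM, all above the control mean (0.28 ± 0.12, adjusted p = 0.42). Summed levels of 8 periportal markers, none of them a member, ranged over mice from 2847 to 4649 CPM in control, 1897 to 3774 with nilotinib 30 mg/kg and 3257 to 5610 with ponatinib 3 mg/kg, and their part in these values was not tested.

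Within groups, the arginine genes rose and fell together from mouse to mouse. After removal of the group means, 6 of the 28 pairs of members had an adjusted p below 0.05 by a permutation test within groups over 56 mice, and they were the 6 pairs among Arg1, Ass1, Asl and Slc7a2. Pearson's r was 0.73 for Arg1 and Asl (Spearman's rho 0.63; adjusted p = 9.33e-05 for both), 0.71 for Ass1 and Asl (rho 0.69) and 0.70 for Arg1 and Ass1 (rho 0.62). For Slc7a2 it was 0.60 with Asl (rho 0.53), 0.58 with Arg1 (rho 0.47) and 0.42 with Ass1 (rho 0.43; adjusted p = 0.0159 and 0.0108). Without the 2 mice farthest from the median of the first gene, r was 0.67, 0.66 and 0.66 for the first 3 pairs and 0.54, 0.54 and 0.35 for the Slc7a2 pairs. Of the groups of 8 mice, Arg1 and Asl had an r above 0 in all 7 and the other pairs in 6, with ponatinib 3 mg/kg the exception for 4 of these (r = -0.55 for Ass1 and Asl) and ponatinib 10 mg/kg for Ass1 and Slc7a2 (-0.11). None of 8 tests of a member against the share of reads outside genes passed by permutation over 56 mice, and for Asl, with the lowest p of these, r was 0.23 (adjusted p = 0.347) and rho 0.31 (adjusted p = 0.196). When the 2 mice with the most extreme shares were left out, r for Asl was 0.43. Within groups r with that share ran from -0.295 (L-NAME) to 0.82 (nilotinib 10 mg/kg) for Asl and from -0.485 (ponatinib 10 mg/kg) to 0.93 (nilotinib 10 mg/kg) for Slc7a2.

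**Figure D4:**
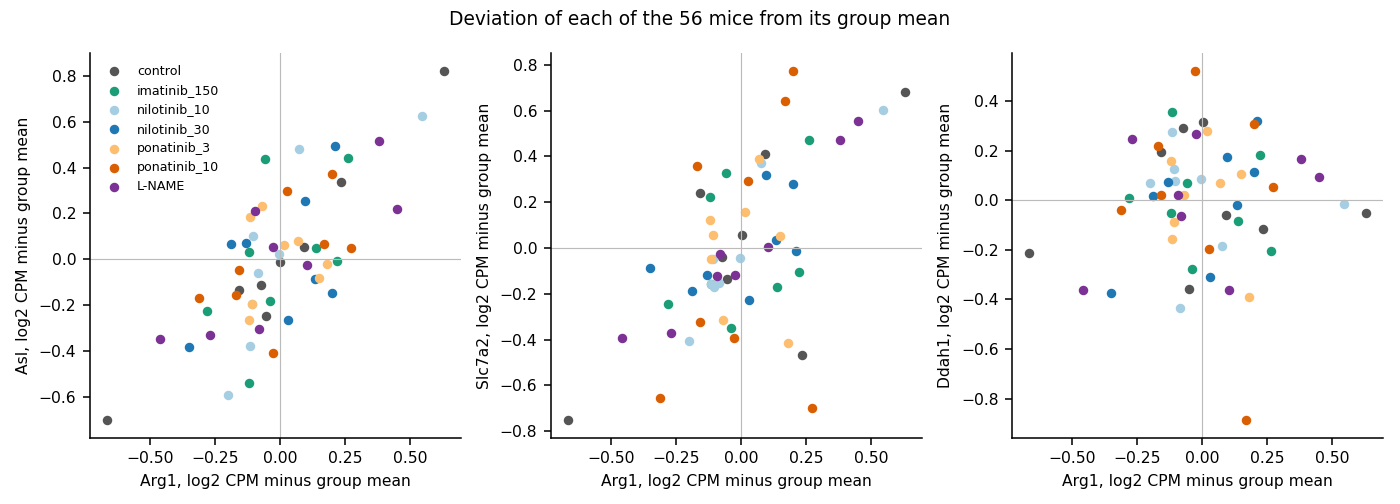
Log2 CPM minus the group mean in each of the 56 mice, coloured by group, for Arg1 on the x axis against Asl, Slc7a2 and Ddah1. Asl and Slc7a2 follow Arg1 (r = 0.73 and 0.58), and Ddah1 spreads around 0 across the range of Arg1.

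As a description with no test, the genes whose deviations were most like those of Slc7a2 were Slc38a4, an amino acid transporter (r = 0.83 over 56 mice), Slc2a2, the hepatic glucose transporter (0.71), and Uox (0.71). For Arg1 they were Uox, which oxidises urate (0.74), Fbp1, of gluconeogenesis (0.73), and Asl (0.73). For Asl they were Selenbp1 (0.79), Uox (0.77) and Khk, which phosphorylates fructose (0.76), and for Ass1 they were Gm5424 (0.87), Gls2 (0.85) and Hgd (0.83). For Ddah1 they were Acsl1 (0.81), Cyp2b9 (0.79) and Alb (0.77). Agxt2 was most like Oat, which makes glutamate semialdehyde from ornithine (0.62), Bbip1 (0.61) and Hmgn2 (0.57). Nos3, a gene of few reads, was most like Cd93, an endothelial surface protein (0.62), Galc (0.59) and Emp3 (0.57), and Ddah2 was most like Alas2 (0.56), Gm18635 (0.55) and P3h4 (0.53). All genes of a mouse share its library and depth.

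In the wider pathway, genes of tetrahydrobiopterin, the cofactor that the synthases need, were higher where they were called. This list, like the others, was chosen with earlier results of these data known. Of 8 genes measured, 4 were higher with imatinib, against 5.69% of all genes higher, 3 with ponatinib 10 mg/kg (7.24%) and 3 with L-NAME (5.55%). The median log2 difference of the list was 0.33, 0.36 and 0.26 in these comparisons, against -0.02, -0.01 and 0.02 for all genes. Gchfr, the feedback regulator of GTP cyclohydrolase, averaged 68.5 ± 15.8 CPM in control mice, 114 ± 17.3 with imatinib, 105 ± 22.1 with ponatinib 10 mg/kg and 102 ± 18.3 with L-NAME, differences of 0.74 ± 0.16, 0.61 ± 0.16 and 0.57 ± 0.16 on the log2 scale (adjusted p = 0.0019, 0.0073 and 0.012). Pts, which makes the pterin precursor, and Pcbd1, which recycles the cofactor, were higher in the same comparisons, by 0.50 to 0.57 and by 0.37 to 0.49. Spr, which catalyses the last step of its synthesis, was higher with imatinib (0.33 ± 0.11, adjusted p = 0.037). With the share of reads outside genes in the fit, 2 genes of this list stayed called with imatinib and none with ponatinib 10 mg/kg or L-NAME, while without L-NAME replicate 10 the 3 L-NAME calls held in number.

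**Figure D5:**
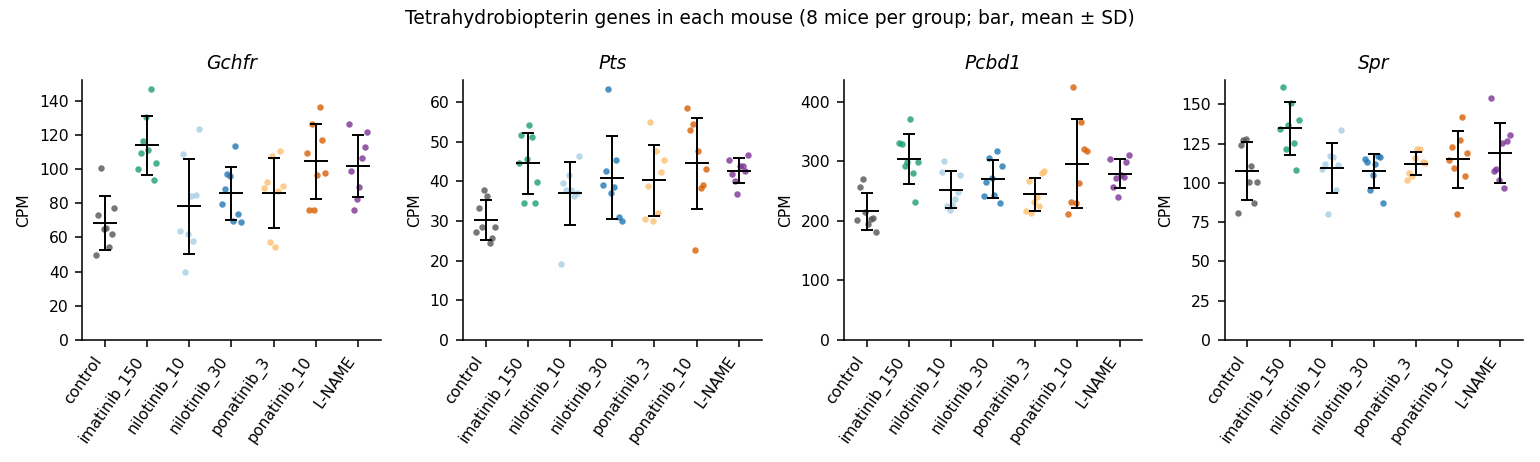
CPM of Gchfr, Pts, Pcbd1 and Spr in each mouse (points), 8 mice per group, with the mean and SD as a black bar. Gchfr averages 114 CPM with imatinib against 68.5 CPM in control, and no imatinib mouse lies under 93.6 CPM.

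Further genes of the urea cycle and of arginine and nitrogen handling around it were lower where they were called. Of 14 tested, 4 were lower with L-NAME (6.24% of all genes lower), 3 with ponatinib 10 mg/kg (5.87%), 3 with nilotinib 30 mg/kg (3.43%) and 2 with imatinib (4.58%). Cps1, which makes carbamoyl phosphate for the cycle, averaged 3731 ± 920 CPM in control mice and 1977 ± 803 with imatinib, 2122 ± 500 and 2035 ± 665 with nilotinib 10 and 30 mg/kg, 2051 ± 982 with ponatinib 10 mg/kg and 1994 ± 530 with L-NAME. It was called in all 5 comparisons, with log2 changes from -0.92 to -0.81 and adjusted p from 0.0031 to 0.038, while ponatinib 3 mg/kg mice had 3480 ± 634 CPM. Slc25a13, the mitochondrial aspartate carrier, was lower with nilotinib 30 mg/kg (-0.66 ± 0.13), ponatinib 10 mg/kg (-0.44 ± 0.13) and L-NAME (-0.68 ± 0.13), and Slc25a15, the ornithine carrier, with L-NAME (-0.57 ± 0.16). Also lower were Slc7a7 with imatinib (-1.05), Gls2 with nilotinib 30 mg/kg (-0.67) and Oat with ponatinib 10 mg/kg (-0.73). Glutamine synthetase, Glul, averaged 1104 ± 206 CPM with L-NAME and 1462 ± 139 CPM in control mice (-0.41 ± 0.12, adjusted p = 0.013), and it was also called by edgeR against the mean of the other 6 groups (-0.44 ± 0.09, adjusted p = 0.019), where DESeq2 called 2 genes of this list. Without L-NAME replicate 10, or with the share of reads outside genes in the fit, no gene of this list was called in that comparison. With the share of reads outside genes in the fit, 1 gene of this list was called in each of the imatinib, nilotinib 30 mg/kg and L-NAME comparisons and none with nilotinib or ponatinib at 10 mg/kg.

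Of 10 genes that consume arginine and its products, Sat1, which acetylates polyamines, was higher with L-NAME (147 ± 24.8 against 96.6 ± 10.0 CPM in control; log2 0.61 ± 0.13, adjusted p = 0.0008) and with nilotinib at 10 and 30 mg/kg (0.47 ± 0.13 and 0.44 ± 0.13). It was 1 of 10 higher at 30 mg/kg, where 2.34% of all genes were higher, whereas Azin1, the antizyme inhibitor, was lower with nilotinib 30 mg/kg (-0.53 ± 0.12) and L-NAME (-0.38 ± 0.12). With ponatinib 10 mg/kg the creatine synthesis genes Gatm and Gamt were lower (-1.02 ± 0.24, adjusted p = 0.0024) and higher (0.67 ± 0.17, adjusted p = 0.0044). With the share of reads outside genes in the fit, no gene of this list was called at either nilotinib dose, 1 was lower and none higher with ponatinib 10 mg/kg, and 1 was higher and none lower with L-NAME. Without L-NAME replicate 10, Azin1 was not called with L-NAME. Of 12 tested partners of the synthases, the chaperone gene Hsp90ab1 was lower with ponatinib 10 mg/kg (-0.35 ± 0.10) and L-NAME (-0.36 ± 0.10), and Hsp90aa1 with L-NAME (-1.03 ± 0.33, adjusted p = 0.028). These were 1 and 2 of 12 against 5.87% and 6.24% of all genes lower, and all 3 calls were lost with the share of reads outside genes in the fit. Of 7 tested protein arginine methyltransferases, which produce the methylated residues, none was called by edgeR in 10 comparisons, with 2 of 70 tests at an unadjusted p under 0.05 and none called by DESeq2. Prmt1 was not among the 7, so this result does not cover it. Of 10 tested cGMP signalling genes, Npr2, a natriuretic peptide receptor, was higher with imatinib (0.57 ± 0.19, adjusted p = 0.039), where 5.69% of all genes were higher, and 7 of 100 tests had an unadjusted p under 0.05. That call was lost with the share of reads outside genes in the fit.

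Markers of other cell types moved in some of the same comparisons. With imatinib 5 of 12 macrophage and Kupffer cell markers were lower (4.58% of all genes lower; 2 markers with the share of reads outside genes in the fit), and the sum over the list ranged from 573 to 1168 CPM against 944 to 1958 CPM in control. Of the same 12, Marco (2.32) and Clec4f (0.61) were higher and Cd68 (-0.81) lower with ponatinib 10 mg/kg (7.24% and 5.87% of all genes). None of these 3 was called with that share in the fit. With ponatinib 10 mg/kg 4 of 5 erythroid markers were higher (7.24% of all genes higher), with a sum of 162 to 1128 CPM against 149 to 420 CPM, and none was called with the share of reads outside genes in the fit. Endothelial markers gave at most 2 calls of 15, for ponatinib against nilotinib at 10 mg/kg, where 2.06% of all genes were called. Egfl7 was higher with imatinib, both nilotinib doses and L-NAME, in each case not with the share of reads outside genes in the fit. Those comparisons called 10.3%, 1.41%, 5.77% and 11.8% of all genes. In the comparisons with control, stellate and smooth muscle markers gave at most 1 call of 11 tested, lymphocyte markers 1 of 8, periportal markers 1 of 8 and pericentral markers 1 of 10. These single calls fell where 10.3% (imatinib), 5.77% (nilotinib 30 mg/kg), 13.1% (ponatinib 10 mg/kg) and 11.8% (L-NAME) of all genes were called. In lists this short, 1 call does not set a list apart. Cholangiocyte markers gave none in any comparison by edgeR or DESeq2, nor any of 50 tests at an unadjusted p under 0.05. Of 9 hepatocyte markers tested, 4 were higher and 1 lower with imatinib (5.69% and 4.58% of all genes). Nilotinib 30 mg/kg gave 2 higher and 3 lower (2.34% and 3.43%). Ponatinib 10 mg/kg gave 3 and 1 (7.24% and 5.87%), and L-NAME 2 and 3 (5.55% and 6.24%). Apoa2 was higher in these 4 comparisons and Apob lower in the last 3. Tat was lower with imatinib, both nilotinib doses and L-NAME. Adding the share of reads outside genes left 3 higher with imatinib and 2 with ponatinib 10 mg/kg. It left 1 lower with nilotinib 30 mg/kg and 1 in each direction with L-NAME. The part of these cell types in the values of the members was not tested.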

How the data were processed

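Poly(A) RNA of 56 livers was sequenced on a NextSeq 500. Per the labels and the study's methods, the authors aligned reads to GRCm38 with TopHat2 2.0.14 and Bowtie2 2.1.0 and counted them per gene with SAMtools 0.1.18 and HTSeq 0.6.1p1. The authors deposited raw counts, with no normalization, in 1 file per mouse; reads aligning to several places were counted on no gene. Strand setting and annotation release are not given in the sources used here. Symbols came from GENCODE vM21, which named 44585 of 45513 identifiers; Prmt1, Pde2a and Tf were not analysed here. Rows that name no gene stayed out of library sizes.

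Counts were tested with edgeR 4.0.16 (R 4.3.3), by TMM scaling, the filter on low counts by group and 1 quasi-likelihood fit of 7 groups, after a test on simulated data. CPM used TMM-scaled libraries, and log2 CPM a prior count of 2. The 8 mice of a group are separate animals; their numbers run from 1 to 56 and pair none. All 10 members were named in every comparison, and of each further list a part of the called genes. Members and lists were chosen with earlier results of these data known. Alternatives were DESeq2 1.42.0, RLE scaling, no filter, an unadjusted p below 0.01, the 2 groups alone, the share of reads outside genes as covariate and, added after seeing the data, each mouse left out and Ass1 summed with Gm5424.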

Additional observations from a re-analysis of the deposited data

Results flagged for a closer look

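In 10 cases a single mouse lay far from the other 7 of its group, by the gap to its nearest neighbour over the range of the group (Dixon's test). They come from 69 groups tested. Chance would flag about 1 in 20, or 3.45, if values were normally distributed. Groups with mostly 0 reads are not, so the 10 cases cannot be set against 3.45. Of the 10 cases, 7 were single values of Nos2 or Prkg1 above a group at or near 0. For Nos2 they were control replicate 33 (0.965 CPM), imatinib_150 replicate 56 (0.596), nilotinib_10 replicate 36 (0.691) and nilotinib_30 replicate 20 (1.99). For Prkg1 they were nilotinib_30 replicate 54 (4.34 CPM), ponatinib_3 replicate 29 (1.75) and L-NAME replicate 32 (0.938). The medians of the other mice were 0.0 in these 7 groups. Nos3 was 6.75 CPM in ponatinib_3 replicate 29 against a median of 2.77 in the others, Ddah2 was 9.96 CPM in ponatinib_3 replicate 34 against 2.63, and Arg1 was 1376 CPM in nilotinib_10 replicate 9 against 876.

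Slc7a2 was lower at the higher ponatinib dose: the log2 difference between 10 and 3 mg/kg was -0.68 ± 0.18 (adjusted p = 0.036 by edgeR's quasi-likelihood test), and all 8 high-dose mice were below the median of the low dose. The call was lost in 10 of 16 fits that left out 1 mouse (ponatinib_3 replicate 7, 17, 29, 34, 41 or 47, ponatinib_10 replicate 2, 14, 24 or 48; adjusted p from 0.051 to 0.11), in a fit of the 2 groups alone (0.14) and with the share of reads outside genes in the fit (0.27).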

How the results depend on the processing

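No paired analysis was possible because the labels number the mice from 1 to 56 across groups, so no groups share a replicate number. None of the 80 log2 differences of the members changed side of the threshold with RLE scaling or without the filter on low counts, and no called difference changed sign in any alternative. Uncalled ones did, such as Nos3 (0.28 to -0.03) and Ddah2 (0.18 to -0.03) with imatinib once the share of reads outside genes was in the fit. The number of members called was 1 with nilotinib 30 mg/kg, 0 with ponatinib 10 mg/kg, 0 with L-NAME and 0 between ponatinib doses once the share of reads outside genes was in the fit, and 1, 0 and 0 with nilotinib 30 mg/kg, with ponatinib 10 mg/kg and between ponatinib doses in fits of the 2 groups alone, with the cause not tested. At an unadjusted p below 0.01 it was 1 with ponatinib 3 mg/kg, 2 between ponatinib doses, 1 between nilotinib doses and 2 for ponatinib against nilotinib at 10 mg/kg, where DESeq2 called 1. In the 2-group fits the adjusted p was 0.06 for Arg1 with nilotinib 30 mg/kg, 0.12, 0.053 and 0.11 for Ddah1, Asl and Slc7a2 with ponatinib 10 mg/kg and 0.14 for Slc7a2 between ponatinib doses. With 1 mouse left out in turn the number ranged from 1 to 2 with nilotinib 30 mg/kg, 0 to 1 with ponatinib 3 mg/kg, 1 to 3 with ponatinib 10 mg/kg, 0 to 1 with L-NAME, 0 to 2 between ponatinib doses and 0 to 2 for ponatinib against nilotinib at 10 mg/kg. It rose without control replicate 22 (Asl, ponatinib 3 mg/kg, adjusted p = 0.049), without ponatinib 10 mg/kg replicate 18 (Ddah1, between ponatinib doses, 0.015) and, for ponatinib against nilotinib, without nilotinib 10 mg/kg replicate 9 (Arg1 0.03 and Asl 0.017) or 53 (Asl 0.031) or ponatinib 10 mg/kg replicate 18 (Asl 0.032). In all, 42 of 128 fits that left out 1 mouse ended a call, and the Slc7a2 calls with imatinib and nilotinib 30 mg/kg were kept in each of theirs. Depth limits Nos2 and Prkg1, which were not testable, and Nos3 and Ddah2, with 3263 and 3187 reads over all mice.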
